A study of Homo sapiens with 4 samples.

Results

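The heat shock proteins and chaperonins of K562 cells were compared between stable transductants that over-express ZNF16, a zinc finger gene, and stable control transductants. K562 is a human cell line grown from a chronic myelogenous leukaemia, and the series asks what ZNF16 does to its gene expression. Total RNA was measured on Illumina HumanHT-12 beadchips, with 2 ZNF16 arrays and 2 control arrays. Not given in the sources used here are the vector, the promoter driving ZNF16 and whether a transductant was a clone or a pool. Separate derivation within a group is not stated either, so p-values rest on the spread between 2 samples that may be technical repeats. Each standard error (SE), interval and p-value uses limma's moderated variance. That variance combines an entry's own spread with that of the other entries fitted. Members were the entries of the signal table whose symbol begins with HSPA, HSPB, HSPC, HSPD, HSPE, HSPH, HSP90, DNAJA, DNAJB, DNAJC or HSF, or names a subunit of the chaperonin TRiC (TCP1 and CCT2 to CCT8). That rule took 107 of 34692 entries. It left 97 in the named families and 10 that share only the letters, among them HSPC111, the older symbol of the nucleolar gene NOP16. An entry was tested if its signal stood above the negative control beads (detection p under 0.05) on at least 2 of the 4 arrays. This filter passed 10868 entries, among them 57 family members and 7 of the others, while 36 family members were detected on no array.

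Chaperones bind proteins that are not folded and keep them from clumping. HSP70 proteins grip short stretches of a client in cycles driven by ATP, J proteins (DNAJA, DNAJB and DNAJC) deliver clients and start the cycle, and nucleotide exchange factors such as the HSP110 protein HSPH1 end it. HSP90 acts later, on clients that are nearly folded, while small heat shock proteins hold unfolded chains without ATP. Chaperonins are barrels that enclose a client: HSP60 with its lid HSP10 in mitochondria, and TRiC, which folds actin and tubulin, in the cytosol. Heat shock factors, chiefly HSF1, switch on many of these genes under stress. In red cell precursors HSP70 is known for protecting the transcription factor GATA1.

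Of 9 markers of K562 cells, 9 were detected on all 4 arrays, with summed signals of 266759 and 267186 with ZNF16 and 261207 and 238152 in the controls. Of the other lists, 1 of 3 T cell markers (CD3D), 0 of 3 B cell, 0 of 3 monocyte, 0 of 4 fibroblast and 3 of 4 epithelial markers (EPCAM, KRT8, KRT18) were detected on all arrays. The epithelial markers summed to 5119 and 5248 with ZNF16 and to 4589 and 5470 in the controls, so the groups overlapped. The T cell list was lower with ZNF16 without overlap, at 1402 and 1597 against 1788 and 1909 in the controls, with CD3D detected and CD2 and CD3E on no array. The monocyte list was higher, at 1648 and 1546 with ZNF16 against 1486 and 1445 in the controls, though CD14, LYZ and CSF1R were detected on no array. The part of these markers in the results was not tested. ZNF16 itself stayed below detection in both groups (detection p 0.404 and 0.343 on the ZNF16 arrays, 0.519 and 0.693 on the control arrays). Its value combines several probes of unstated position and does not check the labels. Of the 4 arrays, control replicate 2 was the one that stood apart. The SD of its log2 differences over the tested entries was 0.610 and 0.525 against the ZNF16 arrays and 0.520 against control replicate 1, whereas the ZNF16 arrays differed from each other with an SD of 0.341. Without it, 14 of the 64 tested entries taken by the rule changed sign and 37 kept their sign but moved by over 1.5 times, so values without control replicate 2 stand beside many of the differences.

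Promoter sequence is shown for the members whose stress-responsive elements are textbook examples, and for HSPA6 and HSPA8, which lie at opposite ends of the HSP70 values. The stretches lie upstream of RefSeq starts on build GRCh38.p14, and capitals mark the element found. For HSPA8, on the minus strand, the start used lies inside the gene span, which reaches base 123062462. Its stretch therefore lies within that span. The heat shock element is bound by heat shock factors and was searched as GAANNTTC or TTCNNGAA for 2 units. For 3 units the first form was followed by NNGAA and the second by NNTTC, so that every 3-unit match also holds a 2-unit match. The endoplasmic reticulum (ER) stress element was searched as CCAAT, 9 bases of any kind and CCACG. Both strands were searched.
HSPA8 (chr11:123062137-123062236, minus strand): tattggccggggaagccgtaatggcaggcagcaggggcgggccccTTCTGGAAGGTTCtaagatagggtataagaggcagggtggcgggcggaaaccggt
HSPA6 (chr1:161524440-161524539, plus strand): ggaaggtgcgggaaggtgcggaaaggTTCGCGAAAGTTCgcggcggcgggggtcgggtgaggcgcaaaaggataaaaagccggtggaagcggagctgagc
HSPA1A (chr6:31815423-31815542, plus strand): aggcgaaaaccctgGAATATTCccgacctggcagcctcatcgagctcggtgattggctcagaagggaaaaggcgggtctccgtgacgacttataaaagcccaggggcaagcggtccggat
HSPA1B (chr6:31827618-31827737, plus strand): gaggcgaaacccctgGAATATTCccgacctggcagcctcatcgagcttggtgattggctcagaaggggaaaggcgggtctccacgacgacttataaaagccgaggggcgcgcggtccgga
HSPB1 (chr7:76302473-76302572, plus strand): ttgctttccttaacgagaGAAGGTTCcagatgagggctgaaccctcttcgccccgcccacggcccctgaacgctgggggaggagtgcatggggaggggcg
HSP90B1 (chr12:103930210-103930349, plus strand): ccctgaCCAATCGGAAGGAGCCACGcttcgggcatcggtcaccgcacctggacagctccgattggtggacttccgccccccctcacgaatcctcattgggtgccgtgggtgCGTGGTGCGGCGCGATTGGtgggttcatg
HSPA5 (chr9:125241344-125241443, minus strand): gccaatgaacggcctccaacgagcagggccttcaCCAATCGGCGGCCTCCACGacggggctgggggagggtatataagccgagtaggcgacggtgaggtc
HSPA8 carries a 3-unit element that begins 55 bases before that inner start, with another at 230 bases outside the printed stretch. HSPA6 has one that begins 74 bases before its start. HSPA1A and HSPA1B show a 2-unit element at 106 and 105 bases, and HSPB1 one at 182 bases. HSPA5 holds 1 ER stress element at 66 bases and HSP90B1 has 2, at 194 and 89 bases. The windows of HSPA1A and HSPA1B were identical at 277 of 300 aligned bases. Transcripts and probes were not compared, so whether each of these 2 entries reads its own gene was not tested. Over windows of 250 bases before to 50 after each start, a 2-unit element was in 27 of 103 member windows (26.2%), against 13.5% of all 35116 windows. A 3-unit element was in 7 member windows (6.80%), against 0.490% of all windows, and the ER stress element was in 2 (1.94%), against 0.0769%. A match describes letters and not binding.

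No member passed limma's test at an adjusted p of 0.05, and 0 of the 10868 tested entries did (0.0%). At an unadjusted p under 0.05, limma called 4 of 57 family members (7.02%), a share close to the 7.68% (835) of all tested entries. HSPB3 and the pseudogene HSPBL2 were the 2 that were higher with ZNF16, beside a background of 3.68%, and HSPA6 and DNAJC12 were the 2 that were lower, beside 4.00%. The 2 arrays of each group did not overlap for 22 family members (38.6%), again near the 40.0% of all tested entries. Of these 22, 16 were higher with ZNF16 (28.1% of members, 21.0% of all tested entries) and 6 were lower (10.5%, 19% of all). This direction hung on the scaling. When arrays were scaled by their medians in place of quantile normalization, 2 members were higher without overlap (HSPB3 and HSPBL2) and 20 were lower, while all tested entries split 602 to 4204 and their median was −0.19 in place of 0.01. Of the 57 members, 35 (61.4%) lay above 0, against 51.2% of all tested entries. The members' median log2 difference, ZNF16 minus control, was 0.11 under quantile normalization, above the median of all tested entries by 0.096. Under median scaling it lay above that median by 0.072, and without control replicate 2 by 0.048. No member lay at least 2-fold apart in every ZNF16 against control pair, a size that 0.166% of all tested entries reached upward and 0.313% downward. In such RNA from whole cultures, fewer cells expressing a gene and less of its RNA per cell cannot be told apart.

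**Figure D1:**
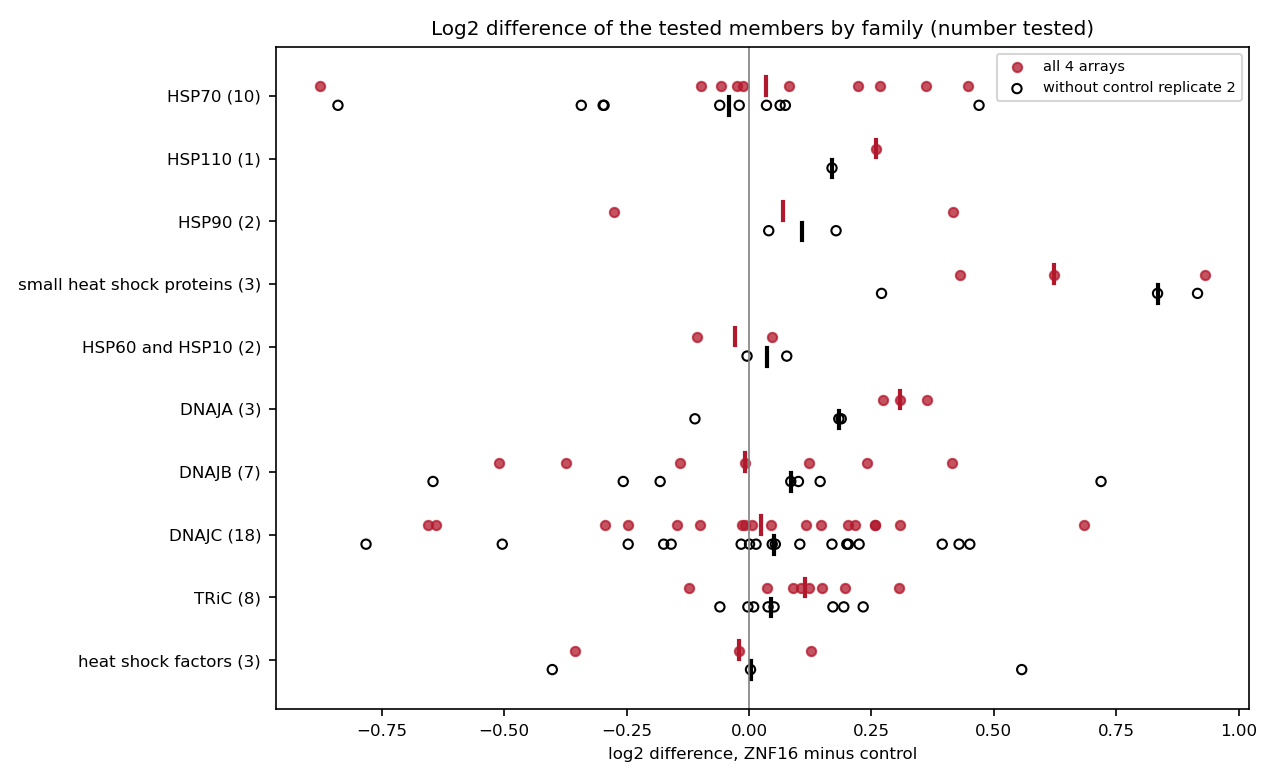
Log2 difference, ZNF16 minus control, of each tested member by family. Filled points use all 4 arrays, open points leave out control replicate 2, and vertical ticks are medians. The 3 entries of the small heat shock proteins lie to the right of 0 both ways, and their medians of 0.62 and 0.83 are the values of the pseudogene HSPBL2. The HSP70, DNAJB and DNAJC points lie on both sides of 0.

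HSF1, the factor that drives the heat shock response, stayed below detection throughout, at detection p-values of 0.684 and 0.716 with ZNF16 and 0.657 and 0.605 in the controls. Its entry was taken as a single probe, and whether that probe reads HSF1 RNA in these cells was not tested. HSF2, a related factor also active in development, had log2 normalized signals of 9.14 and 9.40 with ZNF16 and 9.27 and 9.32 in the controls. Its control values lay between its ZNF16 values, and the difference was −0.02 ± 0.22 on the log2 scale (SE, n = 2 each; limma adjusted p = 0.983). HSF4, known from the lens, was detected in both controls but in neither ZNF16 transductant, and its entry combines several probes. It read 6.42 and 6.52 with ZNF16 and 6.87 and 6.78 in the controls, a separation without overlap near the background that did not pass limma's test (adjusted p = 0.687). HSF4 passed the detection filter through the controls alone, which favours a lower value with ZNF16. Its log2 difference of −0.36 was −0.13 without background correction and −0.92 with the authors' processed values. With negative-control statistics taken from all entries it was −0.020. HSFYP1, a transcribed pseudogene, was the remaining tested entry of 8 in this family, with 5 detected on no array.

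Among the entries grouped as HSP70 by their HSPA symbols, HSPA8 was higher and HSPA6 lower with ZNF16. The other 8 tested entries lay between −0.10 and 0.36 on the log2 scale. HSPA8 encodes HSC70, the constitutive cytosolic HSP70. It gave signals of 23924 and 22820 with ZNF16 and 18813 and 18346 in the controls, or 14.64 and 14.47 against 14.09 and 14.14 after normalization on the log2 scale. Its groups did not overlap, and the difference of 0.45 ± 0.21 (SE, n = 2 each) corresponded to 1.36-fold, with a 95% interval from −0.06 to 0.96 and a limma adjusted p of 0.662. It stayed above 0 in every alternative, from 0.16 under median scaling to 0.53 with 1 array left out. HSPA6 is an HSP70 that is nearly silent until stress. Its signals were 478.8 and 550.5 with ZNF16 and 631.8 and 667.9 in the controls, or 6.86 and 7.47 against 8.01 and 8.08 on the log2 normalized scale. Both ZNF16 arrays were the lower ones, and the log2 difference was −0.88 ± 0.27 (SE, n = 2 each; limma unadjusted p = 0.0141, adjusted p = 0.537), or 1.84-fold lower. The signals were not far above negative control means of 369.8 to 393.1. Without background correction the log2 difference was −0.32, and with negative-control statistics taken from all entries it was −0.064. The entry combines several probes, and its copy HSPA7 was not detected on any array, though probes may not separate the copies.

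The stress-inducible pair HSPA1A and HSPA1B showed no shared direction. HSPA1A read 11.05 and 11.01 with ZNF16 and 11.09 and 10.52 in the controls on the log2 normalized scale, with only control replicate 2 below the rest. HSPA1B read 11.79 and 11.85 with ZNF16 and 11.74 and 11.92 in the controls, and its groups overlapped. The log2 differences were 0.22 ± 0.26 and −0.01 ± 0.21 (SE, n = 2 each; limma adjusted p = 0.836 and 0.989), and −0.060 and 0.074 without control replicate 2. HSPA5, the ER chaperone BiP, had 9.12 and 9.02 with ZNF16 and 9.37 and 8.89 in the controls, again overlapping (limma adjusted p = 0.958). Its log2 difference was −0.06 with all arrays and −0.30 without control replicate 2. HSPA9, the mitochondrial HSP70, had 13.55 and 13.44 with ZNF16 and 13.43 and 13.39 in the controls. Both ZNF16 arrays were the higher ones, but by a log2 difference of only 0.08 ± 0.21 (SE, n = 2 each; limma adjusted p = 0.928), which turned to −0.12 under median scaling. HSPA4 and HSPA4L carry HSPA symbols but are HSP110 proteins that act as nucleotide exchange factors. Their log2 differences were 0.36 and 0.27 with all arrays and 0.036 and −0.020 without control replicate 2. HSPH1, the main HSP110 protein, had 12.38 and 12.43 with ZNF16 and 12.23 and 12.06 in the controls, a separation without overlap of 0.26 ± 0.21 on the log2 scale (SE, n = 2 each; limma adjusted p = 0.766) that was 0.17 without control replicate 2. HSPA14, a ribosome-associated HSP70, differed by −0.10 and HSPA13 by −0.03, or −0.34 and −0.30 without that array, while HSPA1L and HSPA2, known from the testis, and HSPA12A and HSPA12B were not detected on any array. Families were formed by symbol throughout, so HSPA4 and HSPA4L were counted with HSP70, and HSPH1 alone stood for HSP110. Over the 10 tested entries with HSPA symbols 5 lay above 0 and 5 below. Their median log2 difference was 0.03, against 0.01 for all tested entries, with HSPA4 and HSPA4L among those above 0.

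**Figure D2:**
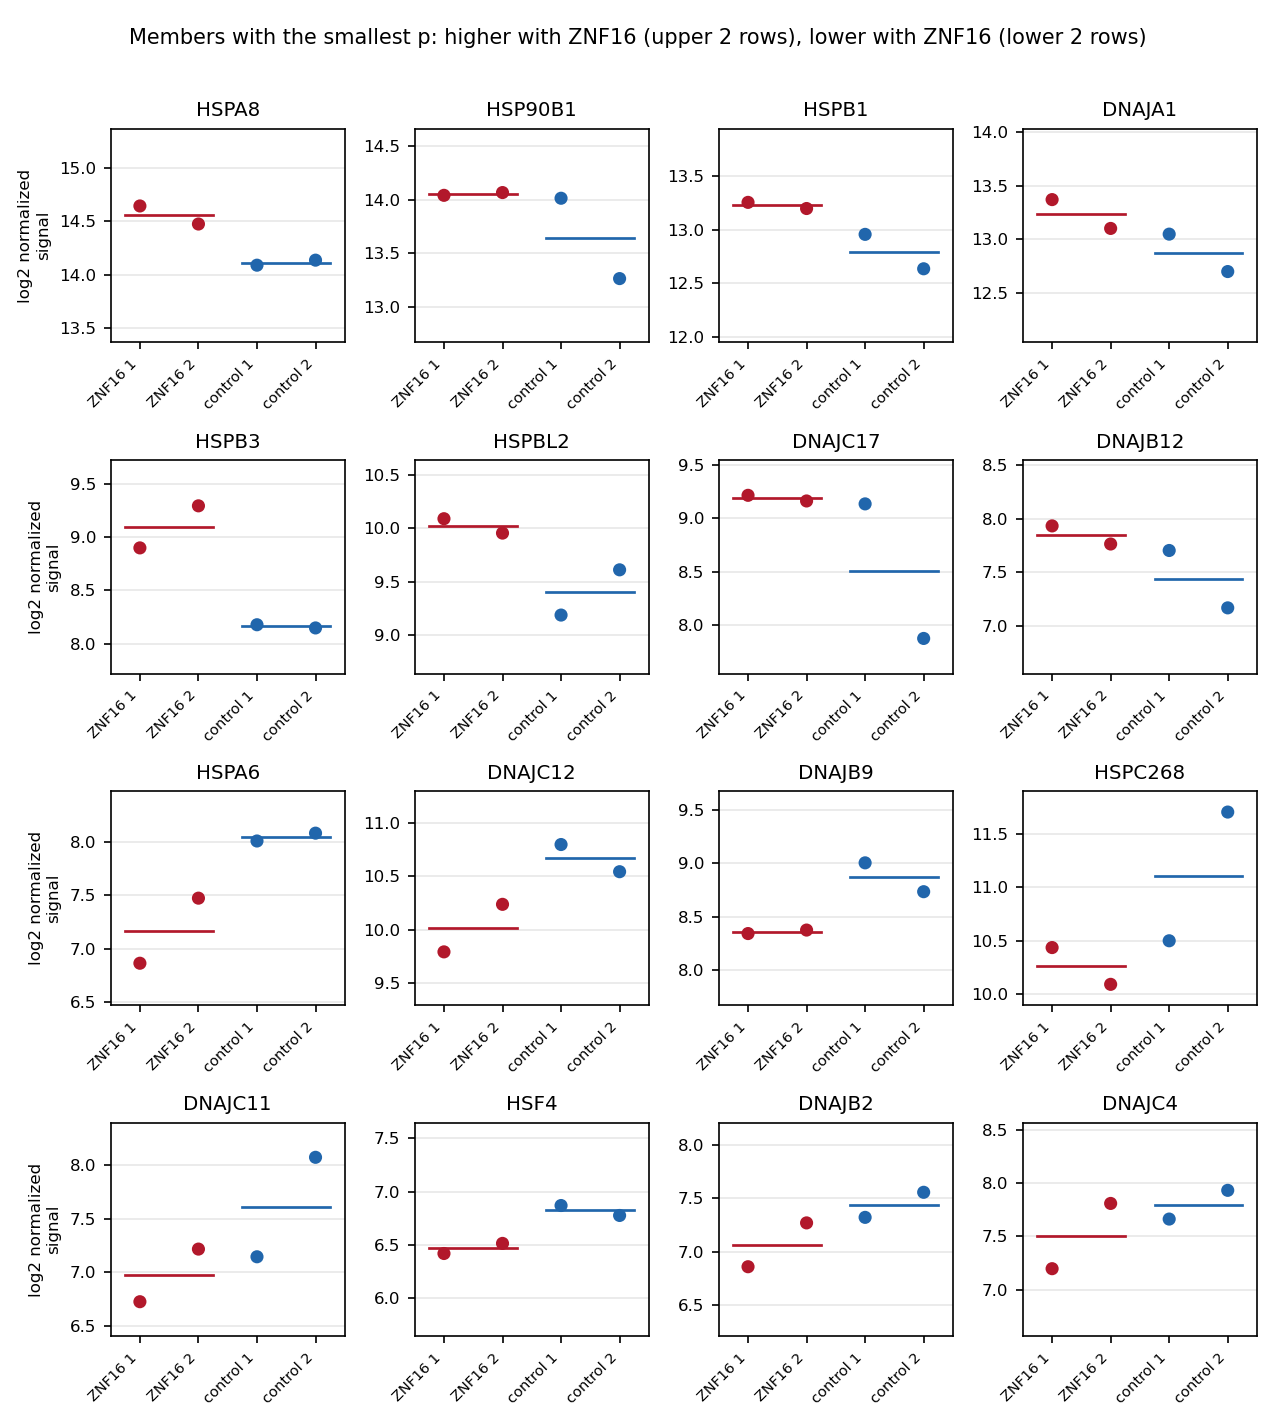
Log2 normalized signal on each array for the 8 higher (upper 2 rows) and 8 lower members (lower 2 rows) of smallest p. Points are arrays and lines group means, and every panel spans 2 log2 units. HSPB3, HSPA8, DNAJB9 and HSF4 show a gap between the groups wider than the spread within them, though HSF4 was detected on the control arrays only. In DNAJC17, HSP90B1, HSPC268 and DNAJC11 control replicate 2 alone stands off.

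The cytosolic HSP90 genes and the ER form HSP90B1 gave differences that turned on single control arrays. HSP90AB1, the constitutive cytosolic form, had log2 normalized signals of 12.88 and 13.15 with ZNF16 and 12.83 and 13.74 in the controls. Its ZNF16 values lay between the control values, and the log2 difference of −0.28 ± 0.33 (SE, n = 2 each; limma adjusted p = 0.840) became 0.18 without control replicate 2. HSP90B1, also called GRP94, had 14.04 and 14.07 with ZNF16 and 14.01 and 13.26 in the controls. Its difference of 0.42 ± 0.29 (SE, n = 2 each; limma adjusted p = 0.725) was 0.040 without control replicate 2. HSP90AA1, the inducible cytosolic form, missed the detection filter, with detection p-values of 0.0723 and 0.0673 with ZNF16 and 0.112 and 0.0825 in the controls. Its entry combines several probes, and its signals of 15315 and 15126 with ZNF16 and 16867 and 12863 in the controls were far above the negative controls. In a fit over every entry it differed by 0.11 ± 0.18 on the log2 scale (SE, n = 2 each; limma adjusted p = 0.943). Its raw ZNF16 signals lay between the control signals, and the groups also overlapped after normalization. HSP90AB2P, HSP90AB4P, HSP90AB6P, HSP90B3P and HSPCAL3 (now HSP90AA2P) are pseudogenes and were not detected on any array.

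All 3 tested entries of the small heat shock proteins, the pseudogene HSPBL2 among them, were higher with ZNF16 and separated without overlap. Over all tested entries 21.0% separated upward. The 3 entries kept their sign in every alternative run. HSPB3, a small heat shock protein of muscle that pairs with HSPB2, gave signals of 832.2 and 1016 with ZNF16 and 667.8 and 678.9 in the controls. After normalization these were 8.90 and 9.29 against 8.18 and 8.15 on the log2 scale, with a narrow spread within the controls. The log2 difference of 0.93 ± 0.23 (SE, n = 2 each; 95% interval 0.37 to 1.49), or 1.91-fold, had a limma unadjusted p of 0.00579 and an adjusted p of 0.420. It shrank to 0.48 without background correction and to 0.14 with negative-control statistics taken from all entries, so its size depends on the correction used. Its partner HSPB2 was not detected on any array. HSPBL2, now HSPB1P1, is a processed copy of HSPB1 that makes no known chaperone, and a probe for it may read HSPB1 RNA. It had 10.09 and 9.95 with ZNF16 and 9.19 and 9.61 in the controls, a log2 difference of 0.62 ± 0.24 (SE, n = 2 each; limma unadjusted p = 0.0374, adjusted p = 0.631). HSPB1, also called HSP27, had 13.26 and 13.20 with ZNF16 and 12.96 and 12.63 in the controls. Its difference of 0.43 ± 0.23 (SE, n = 2 each; limma adjusted p = 0.670) was 0.27 without control replicate 2. The median of the 3 entries was 0.62, the value of the pseudogene. HSPB6, HSPB7, HSPB8 and HSPB9 were, like HSPB2, detected on no array.

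**Figure D3:**
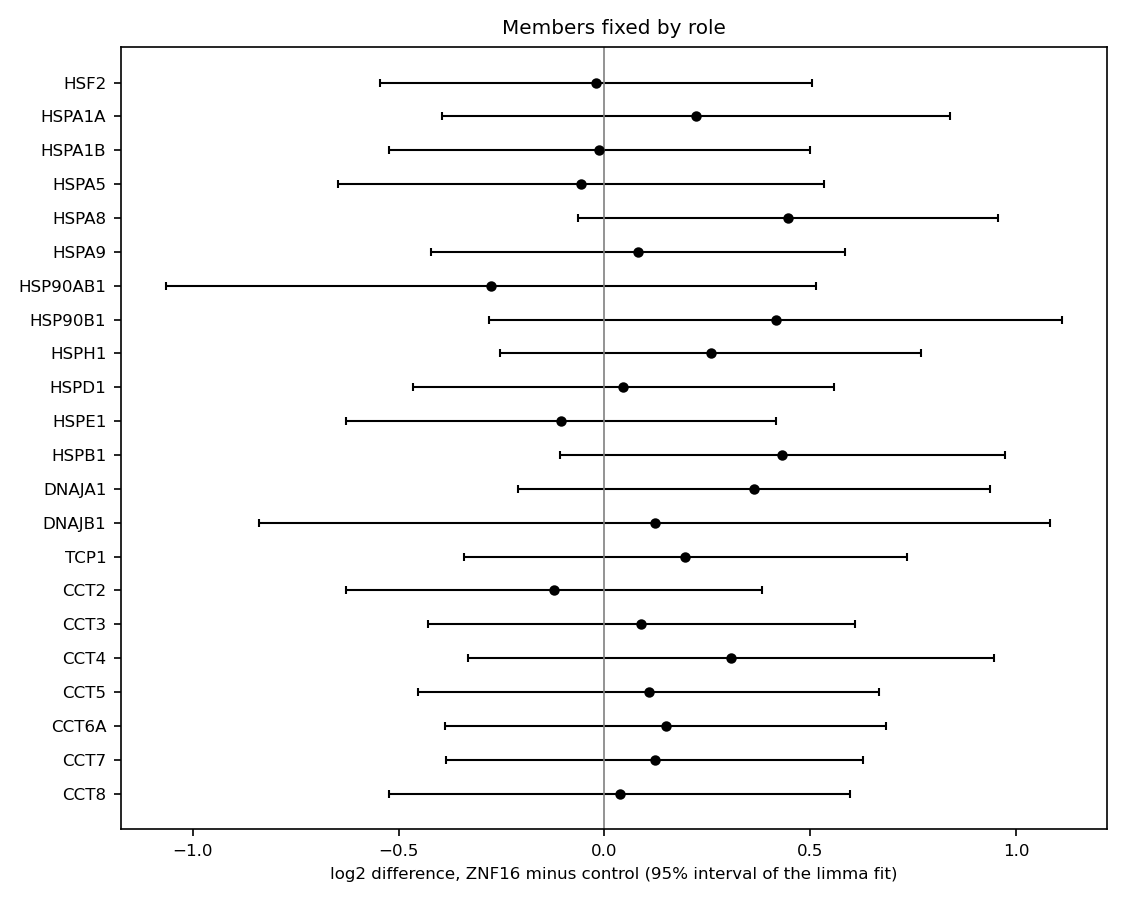
Log2 difference, ZNF16 minus control, with the 95% interval of the limma fit for the 22 tested members named by their role. Every interval crosses 0, and those of HSPA8 (−0.06 to 0.96) and HSPB1 (−0.11 to 0.97) reach least below it.

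The 3 tested DNAJA proteins, the J proteins that deliver clients to cytosolic and mitochondrial HSP70, lay above 0. DNAJA1 had log2 normalized signals of 13.37 and 13.10 with ZNF16 and 13.05 and 12.70 in the controls. Its groups were separated by a narrow gap, and the difference was 0.36 ± 0.24 (SE, n = 2 each; limma adjusted p = 0.717). DNAJA2 differed by 0.31 and the mitochondrial DNAJA3 by 0.27, with limma adjusted p-values of 0.749 and 0.825. Control replicate 2 was the lowest array for all 3, and without it DNAJA1 stood at 0.19, DNAJA2 at 0.18, DNAJA3 at −0.11 and the median at 0.18.

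The DNAJB entries lay 3 above and 4 below 0, with a median of −0.01. DNAJB1, the stress-inducible partner of HSP70, read 9.41 and 9.84 with ZNF16 and 8.90 and 10.10 in the controls, so that the controls enclosed both ZNF16 values. Its log2 difference was 0.12 ± 0.40 (SE, n = 2 each; limma adjusted p = 0.944), and 0.72 without control replicate 2. DNAJB9, the ER protein ERdj4 that acts with BiP, had 8.34 and 8.38 with ZNF16 and 9.00 and 8.73 in the controls. The ZNF16 arrays were close together and below both controls, with a log2 difference of −0.51 ± 0.22 (SE, n = 2 each; limma adjusted p = 0.655). That difference was −0.26 without background correction and −0.075 with negative-control statistics taken from all entries. DNAJB2, enriched in neurons, had 6.86 and 7.27 with ZNF16 and 7.32 and 7.55 in the controls (limma adjusted p = 0.715), also separated downward by a narrow gap. DNAJB12, a J protein of the ER membrane, went the other way, with 7.93 and 7.76 with ZNF16 and 7.70 and 7.17 in the controls (limma adjusted p = 0.700). Its log2 difference of 0.41 was 0.15 without control replicate 2 and also 0.15 without background correction. With negative-control statistics taken from all entries it was 0.030. DNAJB2 and DNAJB12 combine several probes. DNAJB11, the secreted ER partner of BiP, differed by 0.24, DNAJB4 by −0.14, and DNAJB6, known for holding back polyglutamine aggregates, by −0.01. Without control replicate 2 these were 0.085 for DNAJB11, −0.18 for DNAJB4 and 0.10 for DNAJB6.

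The DNAJC class is the most varied, and its 18 tested entries of 29 ranged from −0.66 to 0.68 on the log2 scale, 10 above 0 and 8 below, with a median of 0.02. DNAJC12, a partner of the aromatic amino acid hydroxylases, had log2 normalized signals of 9.79 and 10.24 with ZNF16 and 10.80 and 10.54 in the controls. Both ZNF16 arrays lay below both controls, with a difference of −0.66 ± 0.25 (SE, n = 2 each; limma unadjusted p = 0.0359, adjusted p = 0.628) in an entry that combines several probes. DNAJC17, a nuclear J protein linked to splicing, had 9.21 and 9.16 with ZNF16 and 9.13 and 7.87 in the controls. Control replicate 2 alone was low, and the difference of 0.68 ± 0.40 (SE, n = 2 each; limma adjusted p = 0.687) was 0.054 without it and 1.31 without control replicate 1. DNAJC11, of the mitochondrial cristae, showed the mirror image, with 6.72 and 7.22 with ZNF16 and 7.14 and 8.07 in the controls (limma adjusted p = 0.678). Its log2 difference of −0.64 was −0.17 without control replicate 2. Without background correction DNAJC17 stood at 0.34 and DNAJC11 at −0.23. With negative-control statistics taken from all entries they stood at 0.099 and −0.045. DNAJC4 overlapped between the groups, at 7.20 and 7.81 with ZNF16 and 7.66 and 7.93 in the controls (limma adjusted p = 0.796), with a log2 difference of −0.29, or −0.16 without control replicate 2. Smaller separations upward were seen for DNAJC25 (0.31), the splicing protein DNAJC8 (0.26), DNAJC19 of the mitochondrial import motor (0.22) and the endosomal DNAJC13 (0.12), and these are log2 differences that did not pass the test. Under median scaling DNAJC13 (−0.21) and DNAJC19 (−0.064) separated downward instead. DNAJC25 and DNAJC8 then stood at 0.0024 and 0.038, beside a median of −0.19 for all tested entries. Without control replicate 2, DNAJC25 stood at 0.20, DNAJC8 at 0.10, DNAJC19 at 0.22 and DNAJC13 at 0.17. DNAJC9, which also chaperones histones, differed by 0.15, DNAJC7 by 0.26, and DNAJC5, the cysteine string protein of vesicles, by −0.25. Without that array they were 0.0011, 0.43 and −0.016 in the same order. The largest spread between the controls after DNAJC17 was in DNAJC24, a diphthamide synthesis factor, with 8.62 and 8.31 with ZNF16 and 8.02 and 9.22 in the controls.

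The mitochondrial chaperonin showed no separation. HSPD1, the HSP60 barrel, had log2 normalized signals of 12.61 and 12.43 with ZNF16 and 12.44 and 12.50 in the controls. Its difference was 0.05 ± 0.22 (SE, n = 2 each; 95% interval −0.47 to 0.56; limma adjusted p = 0.961). HSPE1, the HSP10 lid, had 10.54 and 10.40 with ZNF16 and 10.48 and 10.68 in the controls, a difference of −0.11 ± 0.22 (SE, n = 2 each; limma adjusted p = 0.910). Without control replicate 2 the differences were 0.077 for HSPD1 and −0.0040 for HSPE1. Both entries combine several probes, and HSPE1 was detected on 1 array of each group.

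All 8 subunits of TRiC were detected on every array, and their log2 differences lay between −0.12 and 0.31, 7 above 0 and 1 below. CCT2, the subunit below 0, had log2 normalized signals of 13.19 and 13.13 with ZNF16 and 13.22 and 13.35 in the controls, separated by a narrow gap (difference −0.12 ± 0.21, SE, n = 2 each; limma adjusted p = 0.892). CCT7 had 12.73 and 12.75 with ZNF16 and 12.55 and 12.69 in the controls, separated upward by a small step (limma adjusted p = 0.893). CCT4 had 9.56 and 9.52 with ZNF16 and 9.54 and 8.92 in the controls, so its log2 difference of 0.31 ± 0.27 (SE, n = 2 each; limma adjusted p = 0.781) rested on control replicate 2 and was −0.0023 without it. TCP1, the first subunit described, had 10.00 and 9.87 with ZNF16 and 9.89 and 9.59 in the controls (limma adjusted p = 0.833). CCT3, CCT5, CCT6A and CCT8 differed by 0.09, 0.11, 0.15 and 0.04 on the log2 scale, with overlapping groups and limma adjusted p-values of 0.924, 0.915, 0.878 and 0.973. Without control replicate 2, TCP1 stood at 0.051, CCT2 at −0.060, CCT3 at 0.17, CCT5 at 0.0095, CCT6A at 0.039, CCT7 at 0.19 and CCT8 at 0.23. The median over the subunits was 0.11, and it was 0.045 without control replicate 2 and −0.07 under median scaling, where 6 of the 7 higher subunits turned below 0 and CCT4 did not, beside a median of −0.19 for all tested entries. The testis form CCT6B was not detected on any array.

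**Figure D4:**
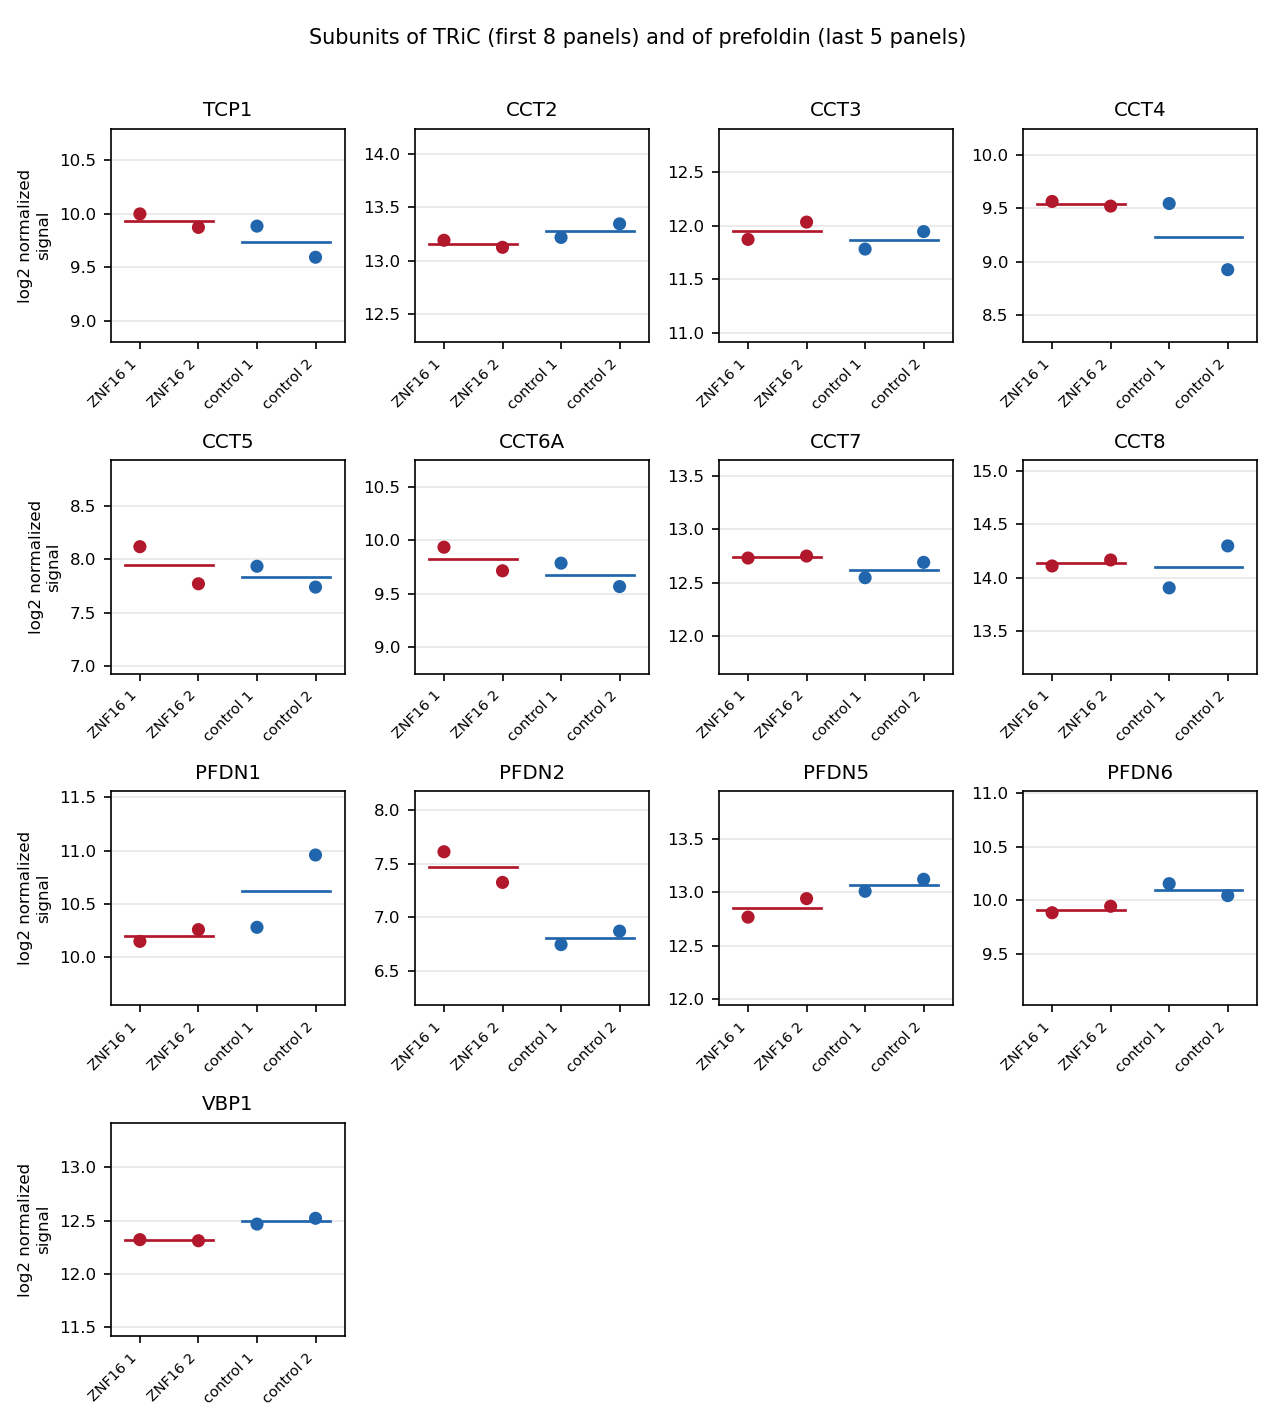
Log2 normalized signal on each array for the 8 TRiC subunits and 5 prefoldin subunits, in panels of 2 log2 units. Points are arrays and lines group means. TRiC group means lie within 0.31 of each other in every panel. PFDN2 is higher with ZNF16 by 0.66, and PFDN1 differs by −0.42. PFDN5, PFDN6 and VBP1 differ by −0.21, −0.19 and −0.18, sizes within those of TRiC. No subunit of either passed limma's adjusted threshold.

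Prefoldin hands actin and tubulin to TRiC, and its subunits were read with other TRiC helpers in a list of 13 genes, of which 11 were tested. None passed the threshold, 4 lay above 0 and 7 below, and the median was −0.19, against 0.01 for all tested entries. The groups did not overlap for 2 upward and 7 downward, beside a background of 21.0% upward and 19% downward over all tested entries. PFDN2 had log2 normalized signals of 7.61 and 7.33 with ZNF16 and 6.74 and 6.87 in the controls. Its log2 difference of 0.66 ± 0.23 (SE, n = 2 each; limma adjusted p = 0.585) was 0.23 without background correction. With negative-control statistics taken from all entries it was 0.040. PFDN2 was the member of the list at an unadjusted p under 0.05 by limma. PFDN1 differed by −0.42, PFDN5 by −0.21, PFDN6 by −0.19 and VBP1 by −0.18. Their limma adjusted p-values were 0.720, 0.817, 0.831 and 0.837 in that order. PFDN1 was −0.077 without control replicate 2. The median of the list was −0.15 without that array and −0.38 under median scaling, and remained below the median of all tested entries both times.

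By place in the cell, the 6 tested ER residents of a chosen list (HSPA5, HSPA13, HSP90B1, DNAJB9, DNAJB11 and DNAJC10) lay 3 above and 3 below 0. Their median log2 difference was −0.01. The list did not hold DNAJB12 of the ER membrane, which differed by 0.41, a size that depended on the background correction. HSPA5 and HSP90B1, whose promoters printed above hold the ER stress element, differed by −0.06 and 0.42. The 8 tested mitochondrial members lay 5 above and 3 below, with a median of 0.05. The 6 tested members with a 3-unit heat shock element (HSPA6, HSPA8, HSP90AB1, HSPD1, DNAJA1 and DNAJB6) lay 3 above and 3 below, with a median of 0.02. The 18 tested members with a 2-unit element, which include these 6, lay 12 above and 6 below, with a median of 0.10.

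The co-chaperone list, which holds exchange factors, HSP90 partners and ubiquitin ligases, had 26 tested genes of 37, with 18 above 0 and 8 below and none past limma's threshold or at an unadjusted p under 0.05. The groups did not overlap for 6 upward and 1 downward, beside the same background of 21.0% and 19%, and the median log2 difference was 0.16. That median was 0.091 without control replicate 2, 0.096 without ZNF16 replicate 1, 0.28 without ZNF16 replicate 2 and 0.24 without control replicate 1. Under median scaling it was −0.06, with 0 separated upward and 5 downward, where the median of all tested entries was −0.19 and their split 602 to 4204. Other targets of HSF1 had 14 tested genes of 20, with 10 above 0 and 4 below, none past the threshold and none at an unadjusted p under 0.05 by limma. Their groups did not overlap for 6 upward and 2 downward, beside 21.0% and 19% of all tested entries. Their median was 0.21 with all arrays, 0.08 without control replicate 2 and 0.01 under median scaling. With that scaling 0 separated upward and 3 downward, beside 5.54% and 38.7% of all tested entries, and 7 lay above 0 and 7 below. These lists share BAG3, CHORDC1, SERPINH1, AHSA1, STIP1 and FKBP4. Of these, BAG3, SERPINH1 and FKBP4 separated upward and so count in both lists.

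The symbols that share only the letters had 7 tested entries of 10, with 2 above 0, 5 below and a median of −0.17. HSPC268, now FMC1, an assembly factor of the mitochondrial ATP synthase, had log2 normalized signals of 10.44 and 10.09 with ZNF16 and 10.50 and 11.70 in the controls. Control replicate 2 was the high array, and the difference of −0.84 ± 0.40 (SE, n = 2 each; limma adjusted p = 0.659) was −0.24 without it. HSPBP1, a nucleotide exchange factor for HSP70 and thus a chaperone partner despite the letters, differed by −0.17 with overlapping groups (limma adjusted p = 0.882), and by 0.14 without control replicate 2.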

How the data were processed

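The deposited signal table holds linear bead intensity values and detection p-values for 4 arrays, summarised by the authors with GenomeStudio 2010.2, per the submitters' processing notes. Tests on the values showed no background subtraction or scaling. The table has 1 row per symbol. Detection p-values of 27095 entries lay on steps of 1 in 770 (to within 0.002) and were taken as single probes, and 7597 entries combine several probes. For the genome build, the sources used here give nothing. A further deposited table, the authors' processed intensity values for 34685 entries, followed a straight line of each array's signal, with slopes of 0.948 to 1.05, so it is linear, background-subtracted and scaled by array. Its column medians were 45.1 and 40.7 with ZNF16 and 40.5 and 43.4 in the controls. It served as an alternative.

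With limma 3.58.1 in R 4.3.3, signals were corrected by normexp, using negative-control means and SDs inferred from the detection p-values of single-probe entries, with an offset of 16, then quantile normalized and taken to log2. The mean signal was 956.1 and 991.8 with ZNF16 and 998.2 and 971.9 in the controls, and the negative-control mean 387.8 and 388.8 with ZNF16 and 369.8 and 393.1 in the controls. ZNF16 was compared with control by lmFit and eBayes over the 10868 tested entries, two-sided, with Benjamini-Hochberg adjustment. The procedure was tested on simulated data, but no result is given here for differences of the sizes reported. The moderated variance had 6.77 degrees of freedom, against 2 residual, so an SE is not the replicate spread of its entry alone. The number of arrays limits the precision. Levels are not comparable between probes. Alternatives changed the background correction, scaling, filter, variance model and replicate block, used the authors' processed values and left out each array. Symbols were matched to RefSeq GRCh38.p14, 97 directly and 9 by an older symbol, with 1 unmatched.

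Members and lists were chosen with earlier results of these data known. Named members were those fixed by role (HSF1, HSF2, the main HSP70, HSP90, HSP110, HSP60, HSP10, DNAJA1 and DNAJB1 genes, HSPB1 and the TRiC subunits) and the 8 higher and 8 lower of smallest p. Other members and list genes are named after their values were seen.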

Additional observations from a re-analysis of the deposited data

How the results depend on the processing

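The members were fitted again under 11 alternatives, and none passed limma's adjusted threshold in any of them. Of 35 named members, 18 kept their sign throughout, 5 changed it under median scaling alone, which moved the median of all tested entries from 0.01 to −0.19, and 12 changed it under another alternative. Over all tested entries, the main count past the threshold of 0 became 7 under median scaling, 3 with a trended and robust variance, 128 with a replicate block and 0 to 2 with 1 array left out. The block gave 6 members at an unadjusted p under 0.05 (10.5%, against 12.4% of all tested entries), where the fit without it gave 4. Deviations of same-numbered arrays from their group means correlated at 0.193, and with 2 pairs the shared numbers are not shown to pair the arrays. Leaving out 1 array gave 1 to 13 members at an unadjusted p under 0.05: 1 without ZNF16 replicate 1 (1.75%, against 2.55% of all tested entries), 2 without ZNF16 replicate 2 (3.51%, against 4.43%), 13 without control replicate 1 (22.8%, against 24.8%) and 7 without control replicate 2 (12.3%, against 8.29%), and the cause was not tested. Median scaling put the median log2 difference of all families at −0.12, of HSP110 at 0.077, HSP90 at −0.13, HSP60 and HSP10 at −0.21, DNAJB at −0.16, DNAJC at −0.21, TRiC at −0.069 and the heat shock factors at −0.26, while the median of all tested entries was −0.19. It turned HSPA9 to −0.12, HSP90AA1 to −0.13, HSPD1 to −0.15, DNAJB1 to −0.078, TCP1 to −0.017, CCT3 to −0.076, CCT5 to −0.23, CCT6A to −0.061, CCT7 to −0.050 and CCT8 to −0.24. Negative-control statistics from all entries gave medians of 0.41 for HSP110, 0.22 for the small heat shock proteins and 0.063 for TRiC, and DNAJB1 at −0.00096. Without the filter the median of the small heat shock proteins was 0.10, as entries that were not detected then joined it. The authors' processed values gave a TRiC median of 0.16, HSPA1B at 0.062 and CCT8 at −0.012. With 1 array left out, the lone array being assumed to vary like the others, medians ran from −0.12 to 0.085 for DNAJB, 0.051 to 0.14 for DNAJC, 0.045 to 0.19 for TRiC and −0.30 to 0.027 for the heat shock factors. Of all 64 tested entries taken by the rule, 28 changed sign with at least 1 array left out. The named members that did so, with HSP90AA1 read from the fit over every entry, were HSF2 (−0.15 to 0.11), HSPA1A (−0.060 to 0.50), HSPA1B (−0.099 to 0.074), HSPA5 (−0.30 to 0.18), HSP90AA1 (−0.018 to 0.25), HSP90AB1 (−0.73 to 0.18), HSPD1 (−0.045 to 0.14), DNAJB1 (−0.48 to 0.72), CCT4 (−0.0023 to 0.62), CCT5 (−0.066 to 0.28), CCT8 (−0.16 to 0.23) and DNAJC4 (−0.60 to 0.012). The causes of these turns were not tested. Entries near the negative controls, such as HSPB3, HSPA6, HSF4, DNAJB12 and PFDN2, have differences whose size depends on the background correction.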

Other observations

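The detection filter also left out bright entries. In the whole table, 220 untested entries had a signal above 1000 on all 4 arrays, as HSP90AA1 did, and all 220 combine several probes.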
